A study of Mus musculus with 6 samples.

Results

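The genes described here set how well Notch receptors respond and carry their signal into the nucleus. They are the 3 fringe genes *Lfng*, *Mfng* and *Rfng*, the O-fucosyltransferase gene *Pofut1*, the DNA-binding factor gene *Rbpj*, the 3 Mastermind coactivator genes *Maml1*, *Maml2* and *Maml3*, and the inhibitor genes *Numb* and *Numbl*. They were chosen by symbol from the deposited table of normalized values, in which each of the 10 had 1 row of 18537. RNA was measured in luminal progenitor cells of the mammary gland (Lin-CD24loCD29+CD61+, purified by FACS) from adult nulliparous mice. The 2 groups were *Robo1+/+* (libraries gh03, gh09 and gh15) and *Robo1-/-* (libraries gh06, gh12 and gh18), which the labels describe as littermates from *Robo1+/-* crosses. The *Robo1-/-* animals carried the *tm1Matl* allele on both chromosomes in every tissue, so the sorted cells came from glands in which basal and stromal cells carried it too. Each of the 6 libraries pooled cells of 2 animals, and no other treatment was given.

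Notch is a receptor that is cut after it binds a ligand on a neighbouring cell, and the freed intracellular part enters the nucleus. Before that, in the secretory pathway, POFUT1 attaches fucose to the EGF-like repeats of the receptor, and the fringe enzymes extend this fucose with N-acetylglucosamine. The extension changes how the receptor responds to Delta-like and to Jagged ligands. In the nucleus RBPJ binds DNA with corepressors, and when the cut receptor arrives it forms a complex with a Mastermind protein, which recruits histone acetyltransferases. NUMB and NUMBL are endocytic adaptors that act against Notch at the membrane. In the mammary gland, Notch signaling is known for its part in the luminal lineage and in alveolar progenitor cells.

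The libraries held between 9727191 and 17433868 reads after the deposited values were returned to whole reads, and 1 read was worth between 0.784 and 1.459 units of normalized value. The targeted gene *Robo1* had normalized values of 289, 574 and 541 in *Robo1+/+* cells and 130, 214 and 177 in *Robo1-/-* cells. The *Robo1-/-* mean was 37.1% of the *Robo1+/+* mean, with no overlap between the genotypes. On the log2(value + 1) scale the fold change of *Robo1* was -1.39 with a standard error of 0.36. Its limma adjusted p was 0.86, so even the targeted gene did not pass after adjustment over all tested genes. One *Robo1-/-* library, gh18, stood apart from the other 5. Over the 12551 tested genes with a transcript sequence, its deviation from the mean of the other 5 libraries had a Spearman correlation of -0.81 with the G and C content of the transcript. It was the lowest of the 6 libraries for 38.3% of the tested genes and the highest for 36.2%. Log2 fold changes of the tested members are therefore given with and without gh18. Summed markers of luminal progenitors (*Itgb3*, *Kit*, *Elf5*, *Cd14* and *Aldh1a3*) were 15738 to 19986 in *Robo1+/+* cells and 16116 to 20604 in *Robo1-/-* cells. General luminal markers summed to between 108342 and 123447 in *Robo1+/+* cells and between 58358 and 139644 in *Robo1-/-* cells, with gh18 the lowest. The sum of 8 basal markers was between 573 and 1883 in *Robo1+/+* and between 773 and 1335 in *Robo1-/-* cells. The 5 mature luminal markers (*Esr1*, *Pgr*, *Foxa1*, *Prlr* and *Ly6a*) summed to 28518 to 42845 in *Robo1+/+* and 41423 to 50336 in *Robo1-/-* cells. These sums ran higher in *Robo1-/-* cells, with an overlap only from 41423 to 42845 and gh18 at 47649. A difference in the mix of sorted cells was not tested. The 6 leukocyte markers in the table summed to 104 to 147 and 75.9 to 119, with *Ptprc* and *Tyrobp* under 3 reads in every library. The 5 endothelial markers in the table summed to 43.1 to 75.2 and 27.7 to 90.7, with *Cdh5* and *Cldn5* under 3 reads in every library. Fibroblast markers summed to 704 to 832 and 307 to 1039, adipocyte markers to 70.5 to 372 and 57.7 to 223, and erythroid markers to 19.7 to 63.5 and 27.7 to 55.0.

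Base composition separates the 10 genes, and it is shown first because the values of gh18 followed it. The transcripts of *Numbl* (63.2% G and C), *Rfng* (59.9%), *Lfng* (58.9%), *Mfng* (58.1%), *Maml1* (55.7%) and *Maml3* (54.4%) were above the median of 50.4% over the tested genes, as was *Pofut1* (51.5%). *Numb* (48.9%), *Maml2* (45.4%) and *Rbpj* (43.9%) were below it. The following are 90 bases of coding sequence from each of the 3 tested members richest in G and C and from the 3 poorest, read 5′ to 3′ from NCBI build 37 transcripts, with every G and C in capitals. The stretch for each gene is the one whose share of G and C is closest to that of its whole coding sequence.
*Numbl*: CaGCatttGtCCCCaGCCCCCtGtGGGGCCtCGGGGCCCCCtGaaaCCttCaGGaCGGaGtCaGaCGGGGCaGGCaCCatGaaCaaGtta
*Rfng*: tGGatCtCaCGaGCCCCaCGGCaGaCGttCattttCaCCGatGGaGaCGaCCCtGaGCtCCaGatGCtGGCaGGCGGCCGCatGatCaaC
*Lfng*: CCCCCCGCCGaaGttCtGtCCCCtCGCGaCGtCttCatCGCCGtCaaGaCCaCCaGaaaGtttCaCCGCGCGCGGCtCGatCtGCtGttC
*Numb*: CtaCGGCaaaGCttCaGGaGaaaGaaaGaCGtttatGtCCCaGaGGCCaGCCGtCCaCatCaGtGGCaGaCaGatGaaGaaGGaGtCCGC
*Maml2*: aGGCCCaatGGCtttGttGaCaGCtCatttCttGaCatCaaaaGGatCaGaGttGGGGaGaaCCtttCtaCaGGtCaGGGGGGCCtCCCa
*Rbpj*: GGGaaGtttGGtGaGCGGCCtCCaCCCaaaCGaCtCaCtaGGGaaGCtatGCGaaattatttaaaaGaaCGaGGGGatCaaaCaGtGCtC
Of the 90 bases, 57 were G or C in *Numbl*, 54 in *Rfng* and 57 in *Lfng*, against 48 in *Numb*, 46 in *Maml2* and 44 in *Rbpj*. The stretches are coding bases 46 to 135 of *Numbl*, 247 to 336 of *Rfng*, 310 to 399 of *Lfng*, 10 to 99 of *Numb*, 58 to 147 of *Maml2* and 136 to 225 of *Rbpj*. In NCBI build 37 the genes lie at chr7:28043452-28067163 on the plus strand (*Numbl*), chr11:120642060-120645521 minus (*Rfng*), chr5:141083295-141091497 plus (*Lfng*), chr12:85134984-85262884 minus (*Numb*), chr9:13424434-13513832 plus (*Maml2*) and chr5:53947018-54048684 plus (*Rbpj*). The other 4 lie at chr15:78586312-78603905 minus (*Mfng*), chr2:153067269-153095983 plus (*Pofut1*), chr11:50069136-50105838 minus (*Maml1*) and chr3:51491533-51908813 minus (*Maml3*). Exons of *Numbl* overlapped those of *Adck4* on the same strand over 85 bases, and exons of *Maml2* overlapped those of an unnamed gene model over 101 bases.

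*Rbpj* has a near-identical second copy in the genome, which bears on what its row can count. Of the 5467 windows of 75 bases (the read length after trimming) along its transcript, 2870 (52.5%) occurred letter for letter outside the gene, and of the 1507 windows within its coding sequence 1143 (75.8%) did. All 2870 were found at chr6:46476933-46480794, annotated as the protein-coding gene *Rbpsuh-rs3* inside the body of *Cntnap2*. Shorter stretches on chromosome 4 held 19 and 40 of these windows. The other 9 genes had no window with a second copy. The first such window in the coding sequence, coding bases 137 to 211, is printed because a single read from either place would look the same. Its second copy is at chr6:46480720-46480794.
*Rbpj* and *Rbpsuh-rs3*: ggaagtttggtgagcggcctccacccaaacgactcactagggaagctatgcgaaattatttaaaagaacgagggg
The 37 bases of G or C among these 75 put the shared stretch near the composition of the whole *Rbpj* coding sequence. No row of the table carried the name *Rbpsuh-rs3*. The rule the counting used for reads with several positions is not given in the sources used here, so the *Rbpj* values below may include reads of the copy or leave out reads of the gene. The plot of windows along the *Rbpj* transcript shows where the copied stretches lie.

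**Figure D1:**
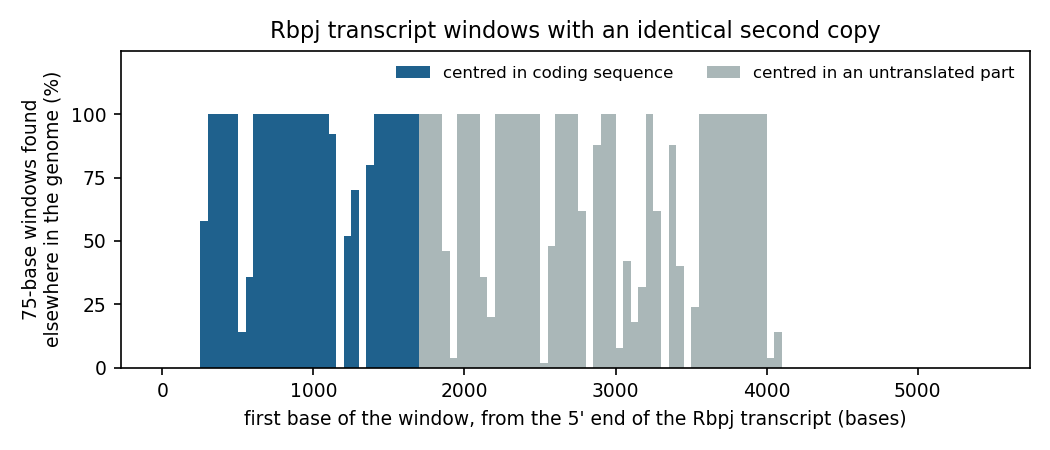
Percent of 75-base windows of the *Rbpj* transcript with an identical copy elsewhere in NCBI build 37 (y axis), in bins of 50 window starts along the transcript in bases (x axis). Windows centred in coding sequence are blue and those centred in untranslated parts grey. Of the coding windows 75.8% have a copy, and toward the transcript's 3′ end there is a long stretch with none.

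Per kilobase of transcript, *Rbpj* stood highest in *Robo1+/+* cells with 285 ± 3.83 units (SD, n = 3), followed by *Numb* with 235 ± 65.8, and the libraries of these genes overlapped. *Rfng* (155 ± 23.6) and *Maml1* (150 ± 29.9) came next and also overlapped each other. *Pofut1* followed with 106 ± 4.55, below every *Maml1* library and above every *Maml2* library. *Maml2* (88.5 ± 9.14) overlapped *Maml3* (78.7 ± 13.0), and *Maml3* overlapped *Lfng* (58.0 ± 12.0). *Numbl* (23.0 ± 2.0) lay below every *Lfng* library. *Mfng*, the third fringe gene, had 1 read in each of 5 libraries and none in gh12. This is under the 3 reads taken as detected, worth 2.35 to 4.38 units of normalized value, so *Mfng* was not tested and no fold is given. The order was set by the *Robo1+/+* libraries alone and rests on the longest protein-coding transcript of each gene. All exons of a gene together can be longer, with 8673 bases against 2760 for *Numbl* and 9912 against 5600 for *Pofut1*. For *Lfng* both were 2282. *Rbpj* was at the 70.4th and *Numbl* at the 15.5th percentile of the tested genes with a transcript length on this per-kilobase scale.

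**Figure D2:**
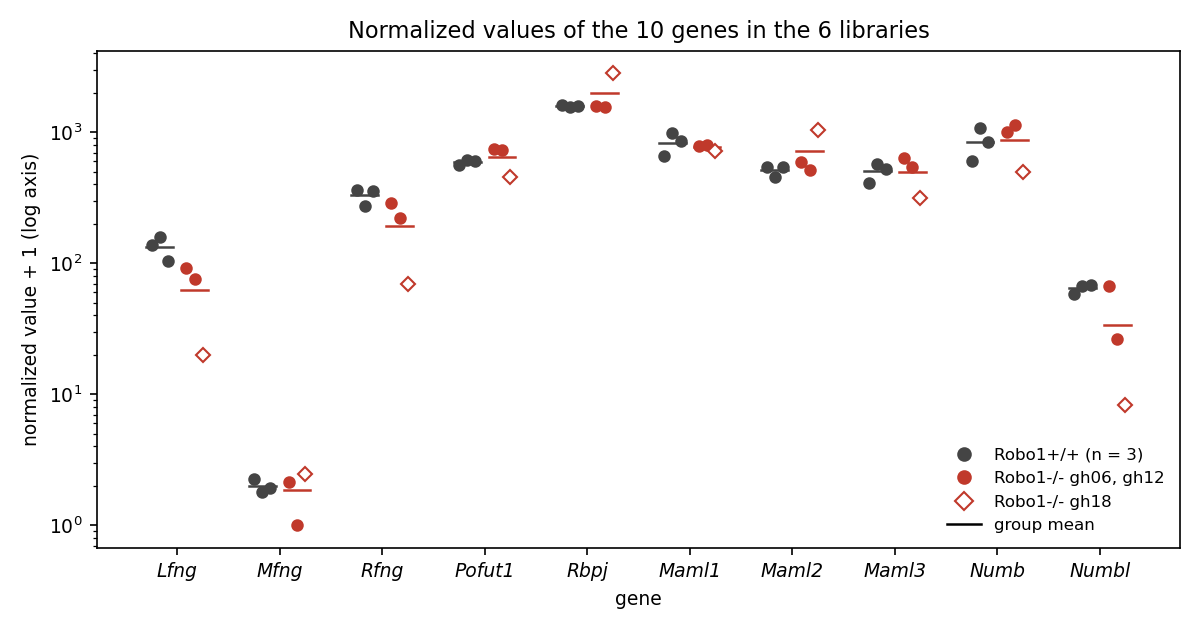
Normalized value plus 1 on a log axis (y) for each of the 10 genes (x) in the 3 *Robo1+/+* libraries (grey) and the 3 *Robo1-/-* libraries (red, with gh18 as an open diamond), with a bar at each group mean. *Rbpj* in the 5 libraries other than gh18 lies between 1558 and 1601, whereas its gh18 value is 2813, and gh18 is the lowest point for *Lfng*, *Rfng*, *Pofut1*, *Maml3*, *Numb* and *Numbl*.

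Among the receptor-modifying enzymes, both expressed fringe genes had smaller means in *Robo1-/-* than in *Robo1+/+* cells, and *Lfng* was the member whose genotypes did not overlap. *Lfng*, the fringe with the best described role in somite formation, had normalized values of 136, 158 and 103 in *Robo1+/+* cells and of 90.9, 75.1 and 19.0 in *Robo1-/-* cells. Every *Robo1-/-* value was below every *Robo1+/+* value, and gh18 was far below the other 2, with 13 reads (19.0 units, 95% Poisson interval 10.1 to 32.4). The *Robo1-/-* mean of 61.7 ± 37.8 (SD, n = 3) was 46.6% of the *Robo1+/+* mean of 132 ± 27.4. The log2 fold change, Robo1-/- over Robo1+/+ on the log2(value + 1) scale, was -1.34 with a standard error of 0.61. The limma p was 0.063 before and 0.86 after Benjamini-Hochberg adjustment, and the exact two-sided permutation p was 0.10, the smallest that 3 against 3 libraries allow. A separation of this kind was common: in 4.58% of the 13692 tested genes every *Robo1-/-* value was below every *Robo1+/+* value. Without gh18 the log2 fold change of *Lfng* was -0.65 (95% interval -1.30 to -0.01, limma unadjusted p = 0.048, adjusted p = 0.94), and after GC correction with all 6 libraries it was -0.59 (-1.22 to 0.03).

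*Rfng*, the fringe gene with the higher level, had values of 358, 270 and 356 in *Robo1+/+* cells and of 285, 219 and 68.6 in *Robo1-/-* cells. The gh06 value lay within the *Robo1+/+* range, gh12 lay below it, and gh18 stood at 27.2% of the mean of the other 2 *Robo1-/-* libraries. The group means were 328 ± 50 and 191 ± 111 (SD, n = 3), a log2 fold change of -1.0 with a standard error of 0.53 (limma adjusted p = 0.86). Without gh18 it was -0.38 (95% interval -0.90 to 0.15), and with GC correction -0.16 (-0.70 to 0.38).

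*Pofut1*, which places the fucose the fringes act on, showed the opposite order in 2 of the 3 *Robo1-/-* libraries. Its values were 565, 615 and 597 in *Robo1+/+* cells and 743, 735 and 451 in *Robo1-/-* cells. Both gh06 and gh12 were above every *Robo1+/+* library, and gh18 was below every one. Its log2 fold change was 0.08 with all libraries (standard error 0.26, limma adjusted p = 0.93) and 0.32 without gh18 (95% interval -0.01 to 0.65, limma unadjusted p = 0.056, adjusted p = 0.94). With GC correction it was 0.15 (-0.27 to 0.58).

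In the nuclear complex, *Rbpj* was nearly constant in 5 libraries. Its values were 1601, 1558 and 1580 in *Robo1+/+* cells, 1596 and 1566 in gh06 and gh12, and 2813 in gh18. The spread over those 5 libraries was no larger than counting error, since each of the 5 values lay inside the 95% Poisson interval of each of the others. The coefficient of variation in *Robo1+/+* cells was 1.34%, the smallest of the 10 genes. The gh18 value, with an interval of 2689 to 2942, was 178% of the mean of gh06 and gh12. The log2 fold change was 0.28 with all libraries (standard error 0.27, limma adjusted p = 0.86), 0.00 without gh18 (95% interval -0.30 to 0.30) and 0.03 with GC correction (-0.28 to 0.34). With these 5 libraries, a change of more than 0.30 on the log2 scale in either direction lay outside the interval for *Rbpj*. Part of this value may belong to the copy on chromosome 6.

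The 3 Mastermind genes were all expressed, with every *Maml1* library above every *Maml2* and *Maml3* library per kilobase in *Robo1+/+* cells, and none of them separated the genotypes. *Maml1*, the founding member of the family in mammals, had values of 654, 982 and 858 in *Robo1+/+* cells and of 784, 791 and 718 in *Robo1-/-* cells. All 3 *Robo1-/-* values lay within the *Robo1+/+* range. The log2 fold change of *Maml1* was -0.10 (95% interval -0.64 to 0.44), -0.06 without gh18 (-0.54 to 0.42) and 0.33 with GC correction (-0.40 to 1.05). *Maml2*, known from gene fusions in salivary gland tumours, had values of 542, 452 and 546 in *Robo1+/+* cells and of 594, 518 and 1036 in *Robo1-/-* cells. The gh18 value was 186% of the mean of the other *Robo1-/-* libraries, which lay in or just above the *Robo1+/+* range. Its log2 fold change was 0.42 (-0.31 to 1.14), and 0.12 without gh18 (-0.28 to 0.52). *Maml3*, the third coactivator, had values of 412, 574 and 523 in *Robo1+/+* cells and of 636, 543 and 312 in *Robo1-/-* cells. Here gh06 was the highest and gh18 the lowest of the 6 libraries. Its log2 fold change was -0.07 (-0.84 to 0.70), and 0.24 without gh18 (-0.23 to 0.71). The limma adjusted p of the 3 genes with all libraries lay between 0.86 and 0.95.

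The inhibitor *Numb* varied widely within both genotypes. Its values were 602, 1069 and 834 in *Robo1+/+* cells and 1006, 1128 and 492 in *Robo1-/-* cells. The lowest and the highest of the 6 libraries were both *Robo1-/-*. The low values of *Numb* in gh18 (492) and gh03 (602) came from the libraries with the fewest reads, 9727191 and 10494297. Beyond these the order differed, with gh06 (12183461 reads) above gh15 (14298652 reads). A link between *Numb* and read number was not tested. For *Numb* the log2 fold change was 0.02 with a standard error of 0.38 (95% interval -0.89 to 0.92, limma adjusted p = 0.99), and without gh18 it was 0.39 (-0.21 to 0.99). *Numbl*, the related gene best known from neural progenitors, had values of 57.2, 65.8 and 67.5 in *Robo1+/+* cells and of 65.6, 25.6 and 7.30 in *Robo1-/-* cells. The gh06 library lay inside the *Robo1+/+* range, while gh12 and gh18 were below it, with 28 and 5 reads. Its log2 fold change was -1.39 with a standard error of 0.73 (limma unadjusted p = 0.097, adjusted p = 0.86), -0.61 without gh18 (95% interval -1.63 to 0.41) and -0.29 with GC correction (-1.09 to 0.50).

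Across the 9 tested members, none had an unadjusted p under 0.05 in the limma fit of all 6 libraries, where 231 of the 13692 tested genes (1.69%) did. After adjustment, 0 genes of the whole table (0%) had p under 0.05 in limma, 0 in edgeR and 1 in DESeq2. The unadjusted p was under 0.05 for 221 of the 13692 genes in edgeR and for 335 of the 18531 genes with a p in DESeq2. The smallest p of any member was 0.086 in edgeR and 0.052 in DESeq2. The log2 fold change was below 0 for 5 members and above 0 for 4, with a median of -0.07 beside 0.00 over all tested genes. Without gh18, 1 of the 9, *Lfng*, had an unadjusted p under 0.05, where 4.2% of the tested genes did. Without gh06 instead, the 3 members *Lfng* (-1.75), *Rfng* (-1.40) and *Numbl* (-2.11) did. All genes past this threshold then numbered 903, beside 231 with all 6 libraries, though that fit chose its own genes to test. That fit keeps gh18 beside gh12 alone in *Robo1-/-*, and these 3 are the tested members richest in G and C. In bulk RNA of sorted cells, fewer cells of a type and less RNA per cell cannot be told apart. The labels give each library its own 2 animals, and the p-values measure only the spread between these pools.

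**Figure D3:**
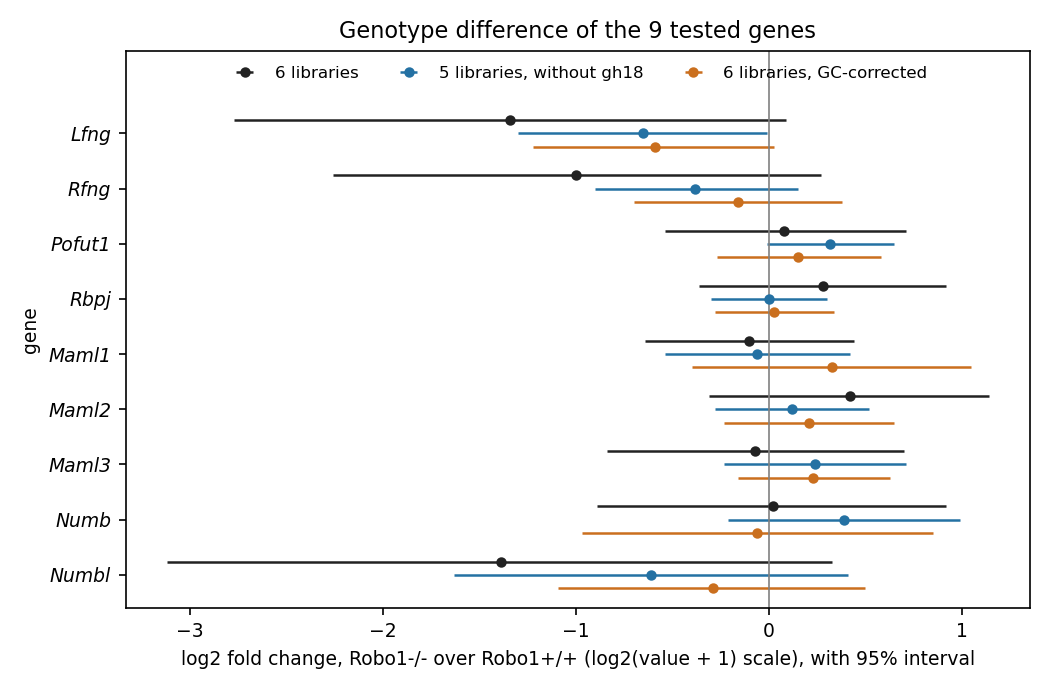
Log2 fold change, Robo1-/- over Robo1+/+ on the log2(value + 1) scale (x axis), with 95% intervals, for the 9 tested genes (y axis) with all 6 libraries (black), without gh18 (blue) and with GC correction (orange). The *Lfng* estimate moves from -1.34 to -0.65 and -0.59, and that of *Rbpj* is 0.00 without gh18.

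The distance of gh18 from the other 5 libraries followed base composition among the members too. On the log2(value + 1) scale it was -2.71 for *Numbl*, -2.46 for *Lfng* and -2.08 for *Rfng*, the tested members richest in G and C. It was 0.83 for *Rbpj* and 0.97 for *Maml2*, the poorest, and the Spearman correlation with the G and C content over the 9 members was -0.82. In gh18, 6 members had their lowest value of the 6 libraries and 2 their highest. When each member was set beside tested genes within the same 2-point range of G and C content, 5 of the 9 lay in the middle 50% of those genes, and 4 did not. *Lfng* (-2.46) compared with a median of -2.13 over 772 genes, and *Rbpj* (0.83) with a median of 0.73 over 963 genes. *Numb* (-0.88) lay below the lower quartile of -0.20, and *Pofut1* (-0.52) just below that of -0.51. *Maml1* (-0.17) lay above the upper quartile of -0.51, and *Maml2* (0.97) above that of 0.85. The part of the genotype in the gh18 values was not tested, since gh18 is 1 library.

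**Figure D4:**
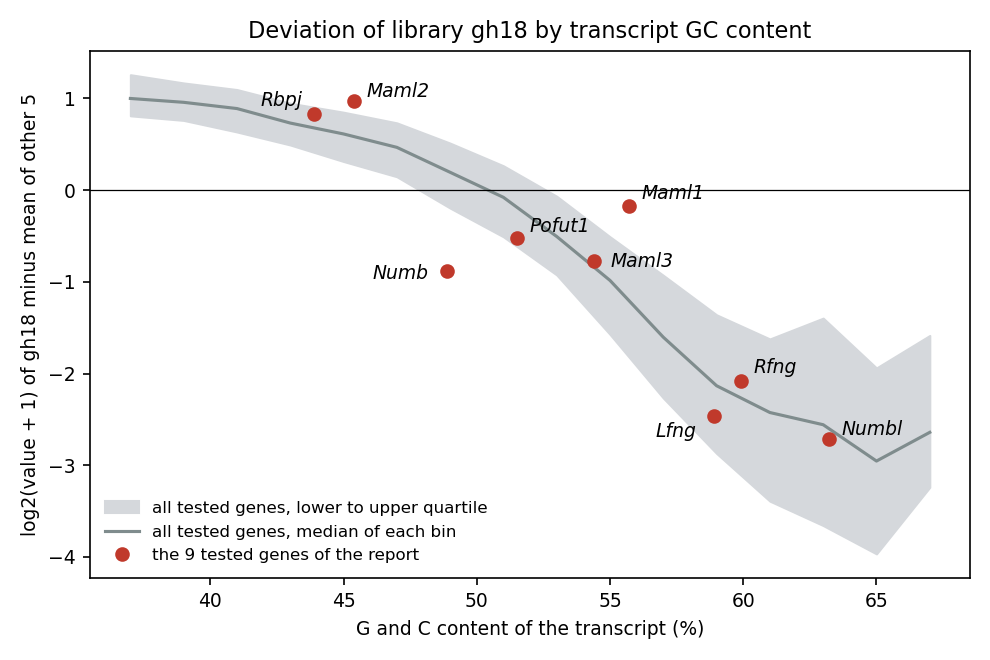
Log2(value + 1) in gh18 minus the mean of the other 5 libraries (y axis) against the percent of G and C in the transcript (x axis). The line and band give the median and the quartiles of all tested genes in 2-point bins and the red points the 9 tested members, from 0.97 for *Maml2* to -2.71 for *Numbl*.

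Shares within each family do not depend on the size factor of a library. *Lfng* made up 28.9% ± 7.27 (SD, n = 3) of the summed fringe values in *Robo1+/+* cells and 23.6% ± 2.15 in *Robo1-/-* cells, a difference of -5.24 percentage points (exact two-sided permutation p = 0.30). It was -1.31 points without gh09 and -8.48 without gh15. *Rfng* took nearly all of the rest, 63.1% to 77.4% in the *Robo1+/+* libraries against 74.5% to 77.0% in the *Robo1-/-* ones. In gh18, where both genes had their lowest values, the *Lfng* share was 21.3%. *Maml1* made up 44.7% ± 4.11 of the Mastermind values in *Robo1+/+* cells and 38.8% ± 3.98 in *Robo1-/-* cells, a difference of -5.90 points (exact p = 0.20) that was -3.81 without gh09 and -3.88 without gh18. Within this family gh18 had the largest *Maml2* share, 50.1%, against 22.5% to 33.7% in the other 5 libraries, and the smallest *Maml3* share, 15.1%. *Numbl* made up 7.33% ± 1.45 of the *Numb* and *Numbl* values in *Robo1+/+* cells and 3.27% ± 2.50 in *Robo1-/-* cells (exact p = 0.20). The genotypes overlapped in all 3 shares, and after GC correction the differences for *Maml1* and *Numbl* changed sign. The GC-corrected log2 value of *Maml1* was 10.48 in gh18, against 9.20 to 9.65 in the other 5 libraries.

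**Figure D5:**
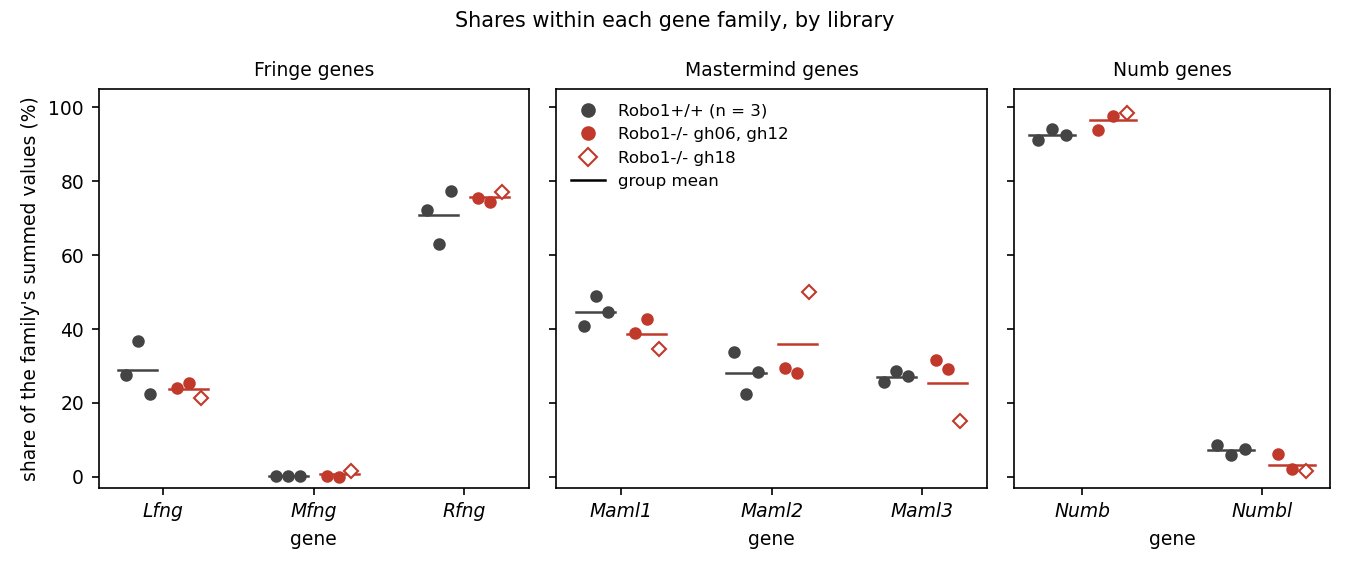
Share of each gene in the summed normalized values of its family in percent (y axis), for the fringe, Mastermind and Numb genes (x axis, left to right), by library, with *Robo1+/+* in grey, *Robo1-/-* in red, gh18 as an open diamond and a bar at each group mean. The *Maml2* share of gh18, 50.1%, lies above the other 5 libraries.

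Of the 71 other genes of the Notch pathway listed beside these 10, those at the other steps gave few differences. None of the 3 tested receptors, 4 ligands, 11 other enzymes of EGF-repeat sugars and fucose supply, 16 other RBPJ cofactors, 16 Numb partners, ubiquitin ligases and inhibitors, or 9 genes of receptor cleavage had an unadjusted limma p under 0.05. Of the 4 tested target genes, 1 was lower and 2 were higher at that threshold, which 1.69% of all tested genes passed in either direction. *Heyl* had values of 363, 212 and 320 in *Robo1+/+* cells and of 99.0, 48.5 and 175 in *Robo1-/-* cells, and the genotypes did not overlap. *Hey2* had 17.8, 28.2 and 24.4 against 56.4, 47.6 and 54.0, also without overlap. Of the 13692 tested genes, 627 were lower and 661 higher in *Robo1-/-* cells without overlap. *Hey1* had 743, 621 and 395 against 1587, 1666 and 708, and here gh18 lay within the *Robo1+/+* range. Their log2 fold changes were -1.61, 1.15 and 1.12, each with a limma adjusted p of 0.86. Without gh18 they were -2.05, 1.13 and 1.52, all 3 with an unadjusted limma p under 0.05. In that fit, where 4.2% of all tested genes passed, 3 genes of the other lists passed as well. These were the xylosyltransferase gene *Gxylt1* (log2 fold change -0.37) and the RBPJ cofactor list genes *Cir1* (0.42) and *Mamld1* (-1.57), with log2 fold changes of -0.04, 0.48 and -0.98 with all libraries; they are named after their values were seen. *Heyl*, *Hey1* and *Hey2* encode transcription factors and are direct targets of the RBPJ complex in many tissues.

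The genes outside the Notch lists that most resembled the members over the 6 libraries are given as a description. They share the libraries and their depth with the members, and correlations over the 5 libraries other than gh18 are given beside those over all 6. *Nufip2*, at 39.2% G and C, followed *Rbpj* with a Pearson correlation of 1.000 (0.842 without gh18) and values of 2260 to 2350 in the 5 libraries other than gh18 and 4830 in gh18. *Ptprs*, a receptor phosphatase gene at 60.3% G and C, followed *Rfng* (0.999, and 0.987 without gh18), with 93.4 in gh18 and 482 to 954 elsewhere. *Cryab*, a small heat shock protein gene, followed *Lfng* (0.995, and 0.963 without gh18), with values of 356, 342 and 257 in *Robo1+/+* cells and of 216, 155 and 37.9 in *Robo1-/-* cells. *Gstt3*, a glutathione transferase gene, followed *Numb* (1.000 with and without gh18), with 551, 1310 and 898 against 1207, 1392 and 417. The nearest genes to the others were *Nudt6* for *Pofut1* (0.996), *Rhou* for *Maml1* (0.984), *Jmjd4* for *Maml2* (0.995), *Papln* for *Maml3* (0.997) and *Phrf1* for *Numbl* (0.998), and without gh18 these correlations were 0.982 to 0.996. Each is the best match among all tested genes outside the Notch lists, over only 6 libraries.

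The letters GTGGGAA, the core of the DNA site that RBPJ binds, were looked for on both strands of RefSeq promoters of 300 bases. They occurred in 2097 of 32851 promoters (6.38%) and in 1 of the 13 promoters found for 9 of the 10 genes, that of *Lfng*. The stretch around it is printed because *Lfng* is the member whose genotypes did not overlap. It is chr5:140607182-140607288 of GRCm38.p6 on the plus strand, from position -159 to position -53 relative to the start of the gene, with the 7 matching letters in capitals. No coordinate of this build is compared with those of NCBI build 37.
*Lfng* promoter: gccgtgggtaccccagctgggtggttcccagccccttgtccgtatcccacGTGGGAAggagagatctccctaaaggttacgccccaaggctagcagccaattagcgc
The match starts 109 bases before the start. It is a match of letters, and binding was not measured in these libraries.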

How the data were processed

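The authors trimmed poly(A)+ reads, removed those of repeat elements and mapped the rest to NCBI37/mm9. The submitters' processing notes name Bowtie, TopHat, SAMtools and DESeq. The counting tool, its use of strand and its rule for reads with several positions are not given in the sources used here. The deposited signal per gene is a read count divided by 1 size factor per library; dividing by the value of 1 read returned whole reads for at least 99.98% of the values of each library, within 0.0051.

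Log2(value + 1) was tested with limma (version 3.58.1, R 4.3.3, two-sided, with trend) for the 13692 genes that filterByExpr of edgeR kept, adjusted by Benjamini-Hochberg. edgeR (4.0.16) and DESeq2 (1.42.0) on the recovered reads were alternatives. For GC correction, the log2 deviation of genes was fitted on transcript GC content by lowess (span 0.3) in each library and the curve subtracted, which covers 12551 genes. Lengths and GC content are those of the longest protein-coding transcript of each gene in GENCODE M1, and positions are from the same release. Poisson intervals cover counting error only. The members and all gene lists were chosen with earlier results of these data known. Named were every member, other listed genes with an unadjusted p under 0.05 (at most 5 per list), the gene most correlated with each member, *Robo1* and markers. *Rita1*, *Aph1b* and *Hes7* had no matching symbol. The scripts were tested on simulated data.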

Additional observations from a re-analysis of the deposited data

How the results depend on the processing

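Counts were taken at an unadjusted p under 0.05. Of the 9 tested members, 0 were counted with all 6 libraries, 3 without gh06, and 1 (*Lfng*) without gh18, so that leaving out each library in turn gave 0 to 3. GC correction with gh18 left out, chosen after seeing the data, gave 1 (*Pofut1*, log2 fold change 0.31, limma unadjusted p = 0.047). Over all tested genes the count was 231, and it was 415 when every gene with at least 1 read was kept and 567 with GC correction and gh18 left out. With 1 library left out it ranged from 117 (without gh15) to 903 (without gh06), and it was 588 without gh18 and 133 without gh03 or gh12. The genes tested differed between these fits, with 14010 without gh18 and 13692 with all 6 libraries, so the counts are not shares of the same number. GC correction turned the difference in the *Maml1* share to 1.92 points and in the *Numbl* share to 0.03 points. It also turned the log2 fold changes of *Maml1* (0.33), *Maml3* (0.23) and *Numb* (-0.06), and with gh18 left out those of *Rbpj* (-0.04) and *Maml3* (0.25). For *Maml1* the GC-corrected log2 fold change with gh18 left out was -0.03. None of these had p under 0.05. Leaving out 1 library turned *Maml1* (range -0.27 to 0.03, above 0 without gh09), *Maml3* (-0.28 to 0.24, above 0 without gh09 or gh18), *Numb* (-0.21 to 0.39, below 0 without gh03, gh06 or gh12) and *Pofut1* (-0.04 to 0.32, below 0 without gh06 or gh12). *Lfng*, *Rfng* and *Numbl* stayed below 0 and *Maml2* above 0 in every setting run, with *Lfng* between -1.75 and -0.57, *Rfng* between -1.40 and -0.16 and *Numbl* between -2.11 and -0.29. The cause of these shifts was not tested. No paired analysis was possible because no label ties a library to a litter.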
